A study of Mus musculus with 4 samples.

Results

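The genes described here act at the start of DNA replication and at the moving replication fork. They are the 10 genes Orc1, Orc6, Cdc6, Cdt1, Gmnn, Mcm10, Cdc7, Dbf4, Timeless and Tipin, found by gene symbol among the 18193 genes that the platform annotation names for the array. RNA levels came from 4 Affymetrix arrays of the 3' expression type, hybridised with RNA of IgA+ cells from the small intestine of 9-week-old female wild-type (WT) Balb/c mice that received no treatment. Sorting on CD11b, an integrin subunit (alpha M) typical of myeloid cells, had divided them into a CD11b+ IgA+ and a CD11b- IgA+ fraction, with 2 arrays each. Each fraction had 1 array labelled from 1 µg of RNA by the One-Cycle kit (replicate 1) and 1 labelled from 0.1 µg by the 3' IVT Express kit (replicate 2). Within each kit the CD11b+ array was set against the CD11b- array. The labels leave unsaid whether the 2 arrays of each fraction stand for different mice or sorts, or whether mice were pooled, so the p-values reflect spread among these 4 samples alone, and that spread may be technical.

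A cell prepares its chromosomes for copying in the G1 phase, when the origin recognition complex marks replication origins and Cdc6 and Cdt1 load the MCM helicase there, a step called licensing. Geminin then holds Cdt1 inactive so that no origin is licensed again before division. In S phase the kinase Cdc7 with its activator Dbf4 phosphorylates MCM, Mcm10 helps to switch the helicase on, and the Timeless-Tipin complex steadies the forks. IgA-secreting plasma cells of the gut wall are largely non-dividing, whereas their precursors, the plasmablasts, divide.

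Many licensing genes are known targets of E2F transcription factors, so the stretch before the transcription start was read for 8 of the 10 genes from RefSeq promoter windows (GRCm38.p6, 250 bases before to 50 after the start). Gmnn and Tipin had no entry. The E2F-type motifs searched were TTTCCCGC, TTTGGCGC, TTTCGCGC and TTTGCCGC, and the second motif was the CCAAT box bound by NF-Y, all on both strands. An E2F-type match occurred in 3 of the 8 genes, Cdc6, Orc1 and Cdt1, against 2.26% of all 32851 windows, and a CCAAT match in 3, Mcm10, Orc1 and Orc6, against 37.4% of all windows. No match of the motifs overlapped another. Shown are the 250 bases upstream of Timeless and Cdc6, which had the largest differences between the fractions, and of Orc1, whose probe sets disagreed, with 30 bases around the match of Cdt1. Capitals mark the motif matches, and all sequences run 5′ to 3′ on the plus strand.
Timeless, chr10:128237816-128238065: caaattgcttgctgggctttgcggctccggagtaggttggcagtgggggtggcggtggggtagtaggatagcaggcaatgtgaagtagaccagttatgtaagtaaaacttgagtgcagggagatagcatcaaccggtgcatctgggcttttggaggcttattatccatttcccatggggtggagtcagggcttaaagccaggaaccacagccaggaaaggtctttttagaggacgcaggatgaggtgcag
Cdc6, chr11:98907901-98908150: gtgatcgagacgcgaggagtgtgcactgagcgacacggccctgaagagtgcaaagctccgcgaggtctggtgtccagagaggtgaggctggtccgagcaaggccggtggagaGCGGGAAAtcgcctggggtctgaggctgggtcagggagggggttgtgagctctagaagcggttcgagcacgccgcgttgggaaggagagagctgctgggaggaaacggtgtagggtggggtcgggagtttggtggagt
Orc1, chr4:108579204-108579453: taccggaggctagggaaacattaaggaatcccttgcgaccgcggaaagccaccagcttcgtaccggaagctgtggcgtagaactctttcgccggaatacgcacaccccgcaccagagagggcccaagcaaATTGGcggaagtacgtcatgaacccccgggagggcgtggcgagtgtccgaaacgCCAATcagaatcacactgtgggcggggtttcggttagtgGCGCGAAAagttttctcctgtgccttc
Cdt1, chr8:122568035-122568064: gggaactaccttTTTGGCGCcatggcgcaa
The match of Cdc6 begins 138 bases before the start and that of Orc1 27 bases before it, whereas in Cdt1 it lies after the start. The Timeless stretch holds neither motif as spelled here. Such matches describe letters in these windows and not binding.

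The sorted marker followed the labels: Itgam, the gene of CD11b, had signals of 189 and 109 in the CD11b+ arrays, against 28.3 and 15.8 in the CD11b- arrays. Igha and Jchain, the IgA heavy chain and the joining chain of secreted antibody, held ranks 1 to 7 by signal among 45037 probe sets in all 4 arrays. Sdc1, the plasma cell surface proteoglycan, held ranks 105 to 263. Signals here are quantile-normalized, and differences are CD11b+ minus CD11b- on the scale of log2(signal + 3). In pooled cells, more cells that carry a transcript and more transcript per cell cannot be told apart.

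Most of the 10 genes stood higher in the CD11b+ fraction. The CD11b+ array was above the CD11b- array with both kits for 8 of 10, against 31.6% of the 12645 genes tested, and for these 8 both CD11b+ arrays also lay above both CD11b- arrays, against 18.3% of all genes. The CD11b+ array was below with both kits for 1, Orc1, against 30.5% of all genes, and its arrays did not overlap either, against 17.3%. These counts take the brighter probe set of each gene. By the other Orc1 probe set, 9 of 10 were higher with both kits and 0 lower. With the mean of each gene's probe sets 9 were also higher, but these leave out Orc1 (log2 -0.049) and take in Cdc7 (0.25). A difference of at least 2-fold without overlap was seen for 3 of 10, Timeless, Cdc6 and Gmnn, against 1.93% of all genes. All 10 passed the low-signal filter, and 0 of them had a CD11b- mean below it. Their median log2 difference was 0.73 (0.76 within the One-Cycle kit and 0.89 within the 3' IVT Express kit), against 0.0027 for all genes. By limma without a block, 0 of the 10 genes passed an adjusted p of 0.05, as did 0% of all genes in either direction (smallest adjusted p among the 10 = 0.467). At an unadjusted p of 0.05 the count was 6 higher (Timeless, Cdc6, Gmnn, Tipin, Dbf4 and Mcm10), against 3.14% of all genes, and 0 lower, against 3.52%. With a replicate block for the kit, limma called 5 of 10 higher (Timeless, Cdc6, Gmnn, Tipin and Dbf4), against 3.73% of all genes, and 0 lower, against 4.14%.

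The calls with the block rest on how limma shares the spread between genes. Without a trend of the spread on signal, the blocked fit called 0 of 12645 genes, and adjusted p-values of the 10 ran from 0.362 to 0.659. With the trend, the 5 genes were called under all 8 blocked settings tried. These 8 include the fit that defined the 5 genes and another that changed only the Orc1 probe set, so they are not independent checks. Over all genes the blocked fit called 472 higher and 524 lower, but 3655 and 154 on signals scaled as deposited and 1730 and 207 after median centring. On deposited scaling limma took the spread from the trend alone (infinite prior degrees of freedom), without each gene's own spread. "Rose" is used below for the 5 genes called with the block, and for other genes called in that fit.

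**Figure D1:**
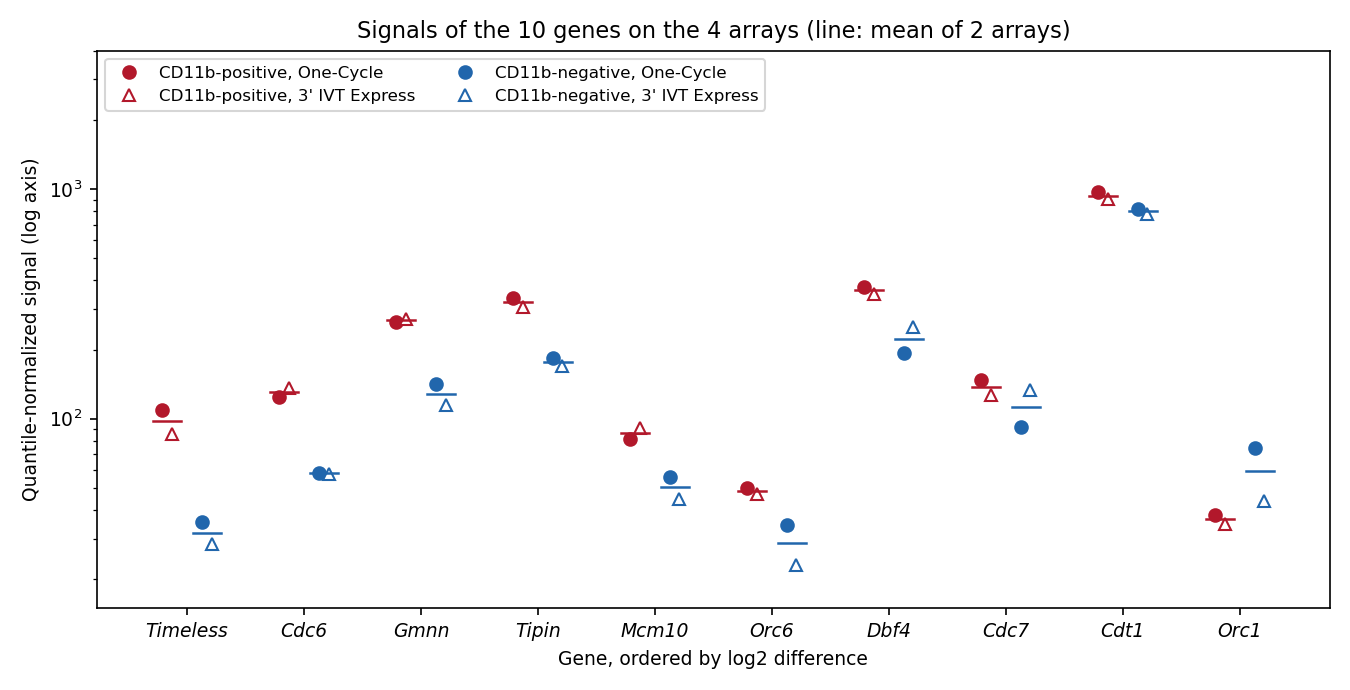
Quantile-normalized signal (log axis) of the 10 genes on each of the 4 arrays, with CD11b-positive arrays left of CD11b-negative arrays, circles for the One-Cycle kit, triangles for the 3' IVT Express kit and lines for the mean of 2 arrays. The arrays of the fractions are separated for 9 genes, with Orc1, by its brighter probe set, lower in the CD11b-positive arrays, and overlap for Cdc7.

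Among the subunits of the origin recognition complex, Orc6, its smallest subunit, had signals of 50.04 and 46.8 in the CD11b+ arrays, against 34.5 and 22.9 in the CD11b- arrays. The fractions did not overlap, and the means were 48.4 ± 2.31 against 28.7 ± 8.17 (SD, n = 2 each). The 1.65-fold difference (log2 0.72, SE 0.33) did not pass with the block (limma adjusted p = 0.198, 95% interval 0.065 to 1.38), and passed in 1 of 8 blocked settings with the trend, that of deposited scaling (0.00930). It was 0.45 without CD11b- replicate 2.

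Orc1, the largest subunit, which in mammals is degraded and remade in the cell cycle, gave opposite readings with its 2 probe sets. The brighter, had signals of 38.2 and 34.9 in the CD11b+ arrays, against 74.5 and 43.9 in the CD11b- arrays. It stood lower with both kits (log2 -0.61, SE 0.34), without passing with the block (limma adjusted p = 0.242, 95% interval -1.21 to -0.012). The other, had 49.2 and 35.6 in the CD11b+ arrays, against 28.4 and 28.6 in the CD11b- arrays, and stood higher with both kits (log2 0.51, adjusted p = 0.435 with the block). No direction is given for Orc1 for this reason. Which probe set is the brighter also rests on the CD11b- arrays, since in both CD11b+ arrays the other had the higher signal. On leaving out 1 array, the brighter probe set ran from -0.97 without CD11b- replicate 2 to -0.25 without CD11b- replicate 1.

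Of the 2 loading factors, Cdc6 rose and Cdt1 did not pass. Cdc6, the ATPase that joins the origin recognition complex to load MCM, had signals of 125 and 136 in the CD11b+ arrays, against 57.9 and 57.5 in the CD11b- arrays. Means were 130.3 ± 7.80 against 57.7 ± 0.289 (SD, n = 2 each), a 2.19-fold difference. It was alike with both kits (log2 1.07 and 1.197, SE of the mean difference 0.24), and the blocked limma adjusted p was 0.000648 (0.506 without the block). Cdc6 ranked at 188 of 12645 genes by log2 difference.

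Cdt1, which brings MCM to the origin, had signals of 970.3 and 900.3 in the CD11b+ arrays, against 821 and 781 in the CD11b- arrays. The fractions did not overlap, but the difference was 1.17-fold (log2 0.22, SE 0.16, or 0.10 with the block). It was 0.24 and 0.20 within the One-Cycle and 3' IVT Express kits. It did not pass with the block (limma adjusted p = 0.226, 95% interval 0.0098 to 0.44). That interval holds for this scaling and rests on the spread shared between genes. As deposited, the Cdt1 signals differed 1.93-fold with the One-Cycle and 1.56-fold with the 3' IVT Express kit. The call depended on the scaling: Cdt1 passed with the block on signals scaled as deposited (limma adjusted p = 0.000304) and after median centring (0.00617), where the median of all genes also stood above 0, at 0.42 and 0.21. It did not pass with a common trimmed mean (0.0882) or cyclic loess (0.196). The second probe set above the filter, stood at -0.069 and 0.23 within the kits. Relative to all genes, Cdt1 was at 0.25 to 0.38 under 4 other scalings.

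Gmnn, the gene of geminin, rose. Its signals were 264 and 273 in the CD11b+ arrays, against 141 and 114 in the CD11b- arrays, which do not overlap. Means were 269 ± 5.86 against 128 ± 19.1 (SD, n = 2 each), a 2.09-fold difference (log2 1.06, SE 0.22; blocked limma adjusted p = 4.68e-05, 0.506 without the block). The inhibitor differed more between the fractions than its target Cdt1, by 0.65 log2 with the One-Cycle and 1.03 with the 3' IVT Express kit. Cdc6 also exceeded Cdt1, by 0.83 and 0.99. These gaps between genes are descriptions and were not tested.

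Of the parts of the origin-firing kinase, Dbf4 was called with the block and Cdc7 was not. Dbf4, the regulatory subunit, had signals of 375 and 350.1 in the CD11b+ arrays, against 193 and 249.99 in the CD11b- arrays. It rose 1.64-fold (log2 0.72, SE 0.22; means 363 ± 17.9 against 222 ± 40.3, SD, n = 2 each; blocked limma adjusted p = 0.00148, 0.613 without the block). The difference was 0.95 with the One-Cycle and 0.48 with the 3' IVT Express kit.

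Cdc7, the catalytic subunit, had signals of 147 and 127 in the CD11b+ arrays, against 92.3 and 133 in the CD11b- arrays, which overlap. Its log2 difference was 0.65 (One-Cycle) and -0.069 (3' IVT Express). The mean of 0.29 did not pass with the block (limma adjusted p = 0.464, 95% interval -0.11 to 0.69), except on deposited scaling (0.0130). It was 0.032 without CD11b- replicate 1 and 0.55 without CD11b- replicate 2. The second probe set, gave 0.084 and 0.32 within the kits. Dbf4 exceeded Cdc7 by 0.30 log2 with the One-Cycle and 0.55 with the 3' IVT Express kit. This gap was not tested, and the 95% interval of Dbf4, 0.42 to 1.01, overlaps that of Cdc7.

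Mcm10, which binds MCM and helps the helicase to unwind the origin, had signals of 81.4 and 91.0 in the CD11b+ arrays, against 55.9 and 44.8 in the CD11b- arrays. The fractions did not overlap, with means of 86.2 ± 6.79 against 50.4 ± 7.88 (SD, n = 2 each). The 1.68-fold difference (log2 0.75, SE 0.27) missed the threshold with the block (limma adjusted p = 0.0586, 95% interval 0.25 to 1.25). Under other blocked settings, added after seeing the data, limma adjusted p for Mcm10 fell on both sides of the threshold. It was 0.0369 with a filter on linear signals, 0.000371 on deposited scaling and 0.0251 after median centring. It was 0.0700 with cyclic loess, 0.113 with a common trimmed mean and 0.300 with the mean of its probe sets. A second, dimmer probe set, stood at -0.22 and 1.42 within the kits.

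**Figure D2:**
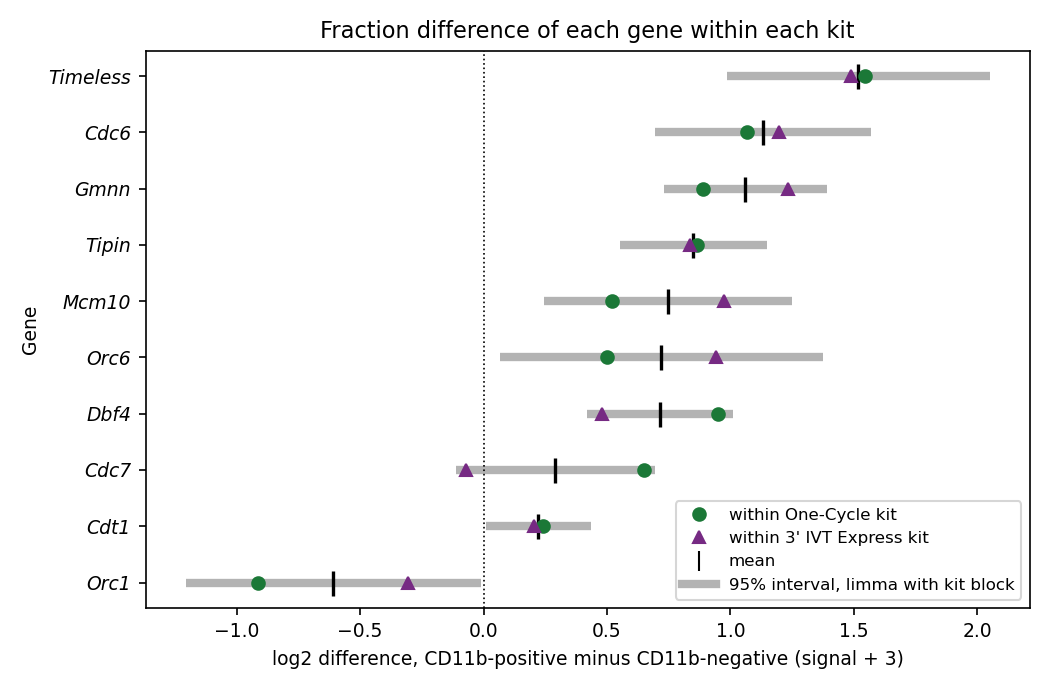
log2 difference (CD11b-positive minus CD11b-negative, signal + 3) of each gene within the One-Cycle kit (circles) and the 3' IVT Express kit (triangles), with the mean (ticks) and the 95% interval of the limma fit with the kit as a block (bars). Timeless, at 1.55 and 1.49, lies farthest to the right, and Cdc7 has its kits on opposite sides of 0.

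Both members of the fork protection complex rose. Timeless, which travels with the fork and is named after a fly clock gene, had signals of 109 and 85.4 in the CD11b+ arrays, against 35.3 and 28.5 in the CD11b- arrays. Means were 97.2 ± 16.7 against 31.9 ± 4.83 (SD, n = 2 each), the largest difference of the 10 at 2.86-fold (log2 1.52, SE 0.29; blocked limma adjusted p = 0.000212, 0.467 without the block). It ranked at 42 of 12645 genes by log2 difference. A second probe set, had 73.4 and 59.4 in the CD11b+ arrays, against 49.0 and 29.4 in the CD11b- arrays. Its log2 difference of 0.75 was smaller, and in a fit over probe sets it did not pass with the block (limma adjusted p = 0.126).

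Tipin, the partner that binds Timeless, had signals of 336 and 305 in the CD11b+ arrays, against 183 and 169.7 in the CD11b- arrays. It rose 1.80-fold (means 320.5 ± 21.2 against 176 ± 9.36, SD, n = 2 each; blocked limma adjusted p = 0.000203, 0.546 without the block). The kits gave nearly the same log2 difference, 0.86 and 0.84. Timeless exceeded Tipin by 0.68 log2 with the One-Cycle and 0.65 with the 3' IVT Express kit, but with its second probe set Timeless, at 0.75, was below Tipin, at 0.85.

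In the order of mean log2 differences, by the brighter probe sets, Timeless was followed by Cdc6, Gmnn, Tipin, Mcm10, Orc6, Dbf4, Cdc7 and Cdt1, with Orc1 last at -0.61. By its other probe set Orc1, at 0.51, would stand between Dbf4 and Cdc7, so it has no settled place. Timeless, at 0.75 by its second probe set, would stand below Tipin. Among neighbours, Timeless over Cdc6, Gmnn over Tipin, Mcm10 over Orc6 and Dbf4 over Cdc7 kept their order with both kits by the brighter probe sets. Cdc6 and Gmnn, Tipin and Mcm10, Orc6 and Dbf4, and Cdc7 and Cdt1 changed places between the kits, so their order is within the spread. Gaps also stayed small where the order held: Mcm10 exceeded Orc6 by 0.027.

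The probe sets bear on how firmly each gene can be read. The 10 genes had 18 probe sets, of which 15 passed the filter, and 5 genes (Cdt1, Orc1, Mcm10, Cdc7 and Timeless) had 2 that passed. The mean differences of the 2 probe sets had opposite signs for 1 of these genes, Orc1. Cdc6, Gmnn, Orc6 and Tipin each had a single probe set, and Dbf4 had a single one above the filter.

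**Figure D3:**
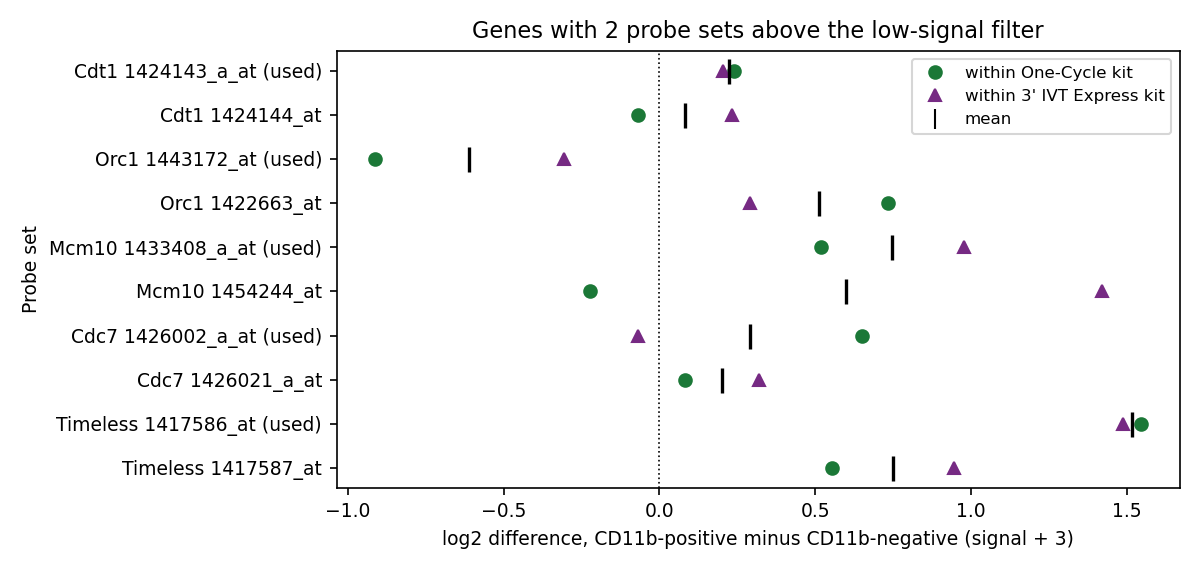
log2 difference (CD11b-positive minus CD11b-negative, signal + 3) of each probe set above the filter for the 5 genes that had 2, within the One-Cycle kit (circles), within the 3' IVT Express kit (triangles) and as mean (ticks). The Orc1 probe sets lie on opposite sides of 0, at -0.61 and 0.51, and those of Timeless at 1.52 and 0.75.

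Other genes of the same machinery were set beside these 10. Among 7 further genes that act at or around origins (Orc2, Orc3, Orc4, Orc5, Lrwd1, Rif1 and Kat7), 0 were called with the block in either direction. Their median log2 difference was 0.14. Lrwd1, which holds the complex on chromatin, had signals of 290.1 and 258 in the CD11b+ arrays, against 240.1 and 196 in the CD11b- arrays (limma adjusted p = 0.189 with the block). The list median was -0.014 without CD11b+ replicate 1, and 0.22 on deposited scaling relative to all genes.

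Of 12 genes that control licensing and Cdt1 turnover, 2 rose and 0 fell with the block, with a median of 0.31. Dtl, the substrate receptor of the ubiquitin ligase that removes Cdt1 in S phase, rose 2.10-fold (130.7 ± 10.3 against 60.7 ± 8.50, SD, n = 2 each; blocked limma adjusted p = 0.00107). Ccne2, a cyclin of the G1/S transition, rose 2.00-fold (adjusted p = 0.00217 with the block). Usp37, a deubiquitinase, stood 1.61-fold higher without passing (adjusted p = 0.0852 with the block).

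The helicase that these factors load and fire also stood higher. Of 6 MCM subunits, 5 rose with the block (median 0.91), among them Mcm3 (2.49-fold), Mcm5 (2.36-fold) and Mcm7 (1.74-fold), and Mcm2 stood at -0.24, with -1.06 and 0.57 within the One-Cycle and 3' IVT Express kits. Of 10 firing factors, 3 rose and 0 fell (median 0.79, and 0.17 with a low-signal filter at the 70th percentile). Topbp1, the scaffold that recruits firing factors, rose 1.72-fold (blocked limma adjusted p = 0.000334). Gins2, of the GINS complex, had signals of 57.7 and 75.0 in the CD11b+ arrays, against 5.53 and 9.61 in the CD11b- arrays, where the mean lies below the filter, so no fold is given. Gins1 had 42.6 and 43.7 in the CD11b+ arrays, against 9.53 and 16.8 in the CD11b- arrays (adjusted p = 0.0132 with the block). Cdc45 stood at 0.10, with -0.29 and 0.50 within the One-Cycle and 3' IVT Express kits.

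Of 14 partners of Timeless and Tipin at the fork and in the S-phase checkpoint, 6 rose and 0 fell with the block (median 0.46). Rpa1, which coats single-stranded DNA, rose 1.85-fold (adjusted p = 4.15e-06 with the block), and Rpa2, its partner, 1.73-fold. Mms22l, of a complex that repairs stalled forks, rose 1.83-fold. Clspn, the gene of claspin, which works with Timeless-Tipin in checkpoint signalling, was at 0.75 (adjusted p = 0.0108 with the block). Of 19 genes of polymerases, clamp and clamp loader, 8 rose and 0 fell (median 0.59, and 0.36 without CD11b+ replicate 1), including Pcna, the sliding clamp (1.57-fold), Prim1, a primase subunit (1.91-fold), and Lig1, which joins Okazaki fragments (1.93-fold).

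**Figure D4:**
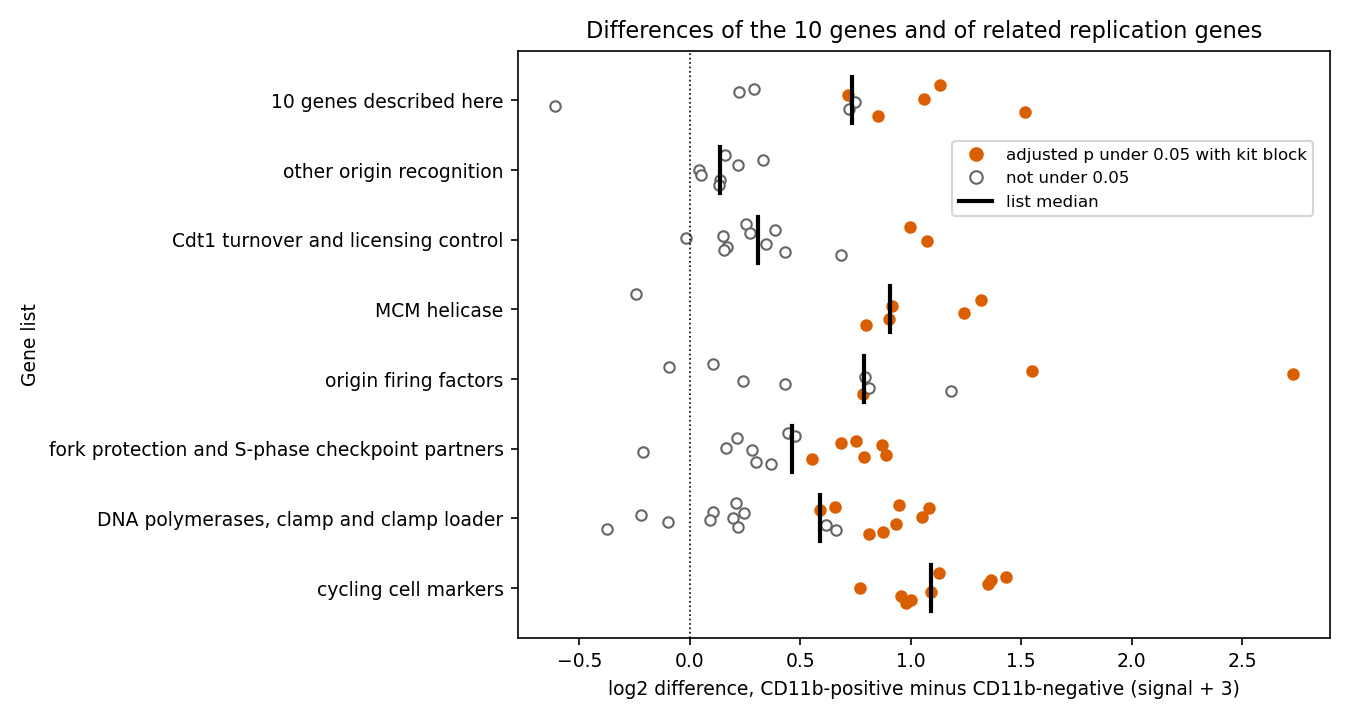
log2 difference (CD11b-positive minus CD11b-negative, signal + 3) of each gene, by list, with filled points for an adjusted p under 0.05 in limma with the kit as a block and bars for list medians. The 10 genes have a median of 0.73, the list labelled other origin recognition (which also holds Rif1 and Kat7) 0.14 and the cycling cell markers 1.09.

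General markers of cycling cells moved alongside. All 9 on the array rose with the block, with a median of 1.09 (0.63 without CD11b- replicate 2 and 1.53 without CD11b- replicate 1). Mki67, the gene of the proliferation antigen Ki-67, had signals of 1818 and 1341 in the CD11b+ arrays, against 1042 and 579 in the CD11b- arrays. Ccna2, the S and G2 phase cyclin, rose 2.55-fold and Cdc20, which switches on the ligase that starts anaphase, 2.13-fold.

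The 5 genes outside the 10 nearest to their median pattern were found by Euclidean distance between log2 values centred on each gene's mean, over the 4 arrays. They were Gins3, a GINS subunit (1.73-fold higher), Zbtb32, a zinc finger repressor of lymphocytes (1.71-fold), Cdca3, which promotes entry into mitosis (1.74-fold), Fabp12, of the fatty acid binding protein family, and Tedc1, a centriole protein (1.79-fold). Fabp12 was dim, with 15.6 and 14.7 in the CD11b+ arrays, against 7.46 and 7.50 in the CD11b- arrays, where its mean lies below the filter, so no fold is given. Within the 10, Tipin lay nearest to the median pattern, at a distance of 0.091, and Orc1 farthest, at 1.48.

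Markers of other cell types also differed between the fractions. With the block, limma called lower 8 of 10 epithelial and 3 of 7 crypt and Paneth cell genes. It also called lower 4 of 10 T, NK and innate lymphoid genes, and 1 of 5 granulocyte and mast cell genes, Prg2. Of 7 macrophage, monocyte and dendritic cell genes it called 1 higher, Itgax. These lists held 0 calls in the other direction, and the shares over all genes were 4.14% lower and 3.73% higher. The 10 epithelial genes had a median of -1.19 (9 lower with both kits), with summed signals of 1605 to 2160.5 in the CD11b+ arrays, against 3719 to 4069 in the CD11b- arrays, and the median was -0.77 without CD11b+ replicate 2. Of 9 crypt and Paneth cell markers on the array, 7 passed the filter, with a median of -0.92. Sums over all 9 were 698 to 1093 in the CD11b+ arrays, against 1508 to 1855 in the CD11b- arrays. The 10 lymphocyte markers of T, NK and innate lymphoid type had a median of -0.62, which turned to 0.11 without CD11b- replicate 1. Sums were 1159 to 2324 in the CD11b+ arrays, against 1604 to 4367 in the CD11b- arrays. Macrophage, monocyte and dendritic cell markers stood at 0.45 over 7 genes and at -0.054 without CD11b+ replicate 1. Their sums, which also take in Cx3cr1 from below the filter, were 464 to 579 in the CD11b+ arrays, against 354 to 419 in the CD11b- arrays.

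Plasma cell markers stood lower with both kits for 7 of 8 genes, with a median of -0.082, and at -0.32 to -0.42 relative to all genes under 4 other scalings. Sdc1 was the 1 gene of this list that fell with the block (log2 -0.61, limma adjusted p = 8.98e-06). Germinal centre markers, which dividing B cells carry, summed to 316 to 336 in the CD11b+ arrays, against 257 to 298 in the CD11b- arrays. These sums include Mybl1 and Rgs13, which were below the filter. The median over the 4 genes above the filter was 0.046. It was -0.21 without CD11b- replicate 2, and -0.045 on deposited scaling relative to all genes. Mature B cell markers, 6 genes, had a median of -0.24 (0.13 without CD11b- replicate 1), with sums of 257 to 271 in the CD11b+ arrays, against 212 to 451 in the CD11b- arrays. Granulocyte and mast cell, stromal and endothelial, and red cell and platelet markers had medians of -0.37, -0.040 and -0.11, over 5, 6 and 2 genes above the filter. On leaving out 1 array these medians ran from -0.52 to -0.24, -0.32 to 0.063 and -0.56 to 0.35. The beta-actin controls, whose 3'/5' ratio goes up where RNA is degraded or cDNA is short, had ratios of 1.43 and 1.61 in the CD11b+ arrays, against 1.90 and 1.84 in the CD11b- arrays. The same ratio for Gapdh was 0.682 and 0.710 in the CD11b+ arrays, against 0.685 and 0.704 in the CD11b- arrays, which overlap. The part of these markers and of RNA quality in the differences of the 10 genes was not tested.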

How the data were processed

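Signals of 4 Affymetrix 3' expression arrays were used. The authors deposited linear intensity values, with 1 value for each probe set. MAS5 and Expression Console are the tools named, per the submitters' processing notes, without versions, settings or a scaling target. Array medians ran from 14.7 to 18.3, so the arrays were quantile-normalized over 45037 non-control probe sets, 3 was added, and log2 was taken. Folds are on this scale and understate differences of weak genes. Gene symbols came from the platform annotation (34945 probe sets name 1 gene, 932 several, 9160 are unnamed here). Probe sets whose mean log2 value exceeded the 40th percentile (a signal of about 9.51) were kept, and the brightest represented its gene. The files name no genome build; promoter windows are RefSeq's on GRCm38.p6.

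All 12645 genes entered limma 3.58.1 (R 4.3.3), with moderated variances that follow the signal (a trend) and 2-sided p-values adjusted by Benjamini-Hochberg over all genes at 0.05, both without a block and with a replicate block for the kit. By the labels, each kit served 1 array of either fraction, and this is the source of the pairing. Same-kit arrays deviated together from their fraction means (r = 0.387 over all genes), but not over the 10 genes alone (r = -0.121). With the block, each gene keeps 1 residual degree of freedom, added to a prior of 25.6. Without the block these were 2 and 4.55, so the smaller p-values with the block also draw on the larger prior. The blocked fit without a trend had a prior of 2.37. The model was run on simulated data with known differences. The simulated noise took its spread from the blocked fit itself, so it cannot check the shared spread on which the blocked calls rest. With 2 arrays on each side the smallest exact permutation p is 0.333, and no such test was used.

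The 10 genes, the gene lists, the motifs and the settings were chosen with earlier results of these data known. Named beyond the 10 were Itgam, Mki67, Igha, Jchain and Sdc1, up to 3 genes per related list by smallest p with the block, and the 5 genes nearest to the 10 in pattern; Mcm2, Cdc45 and Clspn were added after their values were seen. Alternatives were pseudocounts of 1 and 12, 4 other scalings, other filters and probe set rules, no trend, the block, and leaving out each array. A filter on linear signals, the other Orc1 probe set, and blocked fits under other settings were added after seeing the data.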

Additional observations from a re-analysis of the deposited data

Results flagged for a closer look

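Cdc7 was flagged because the fraction difference had opposite signs with the 2 labelling kits: the log2 difference, CD11b-positive minus CD11b-negative, was 0.65 (One-Cycle) and -0.069 (3' IVT Express). Each value sets 1 array against 1 array, and the difference between the kits was not tested.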

How the results depend on the processing

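Without a block, 0 of 12645 genes and 0 of the 10 genes passed; leaving out 1 array gave 0 to 24 genes (24 without CD11b-positive replicate 1 and 4 without CD11b-positive replicate 2) and 0 of the 10. With the kit as a replicate block, 996 genes and 5 of the 10 passed. Blocked fits chosen after seeing the data gave 1151 genes and 6 of the 10 with the filter on linear signals, 1000 and 5 with the other Orc1 probe set, and 746 and 5 with the mean of a gene's probe sets. They gave 3809 and 9 on deposited scaling, 1937 and 7 after median centring, 826 and 5 with a common trimmed mean, 824 and 5 with cyclic loess, and 0 and 0 without a trend. The median log2 difference of the 10 ran from 0.70 to 0.90 on leaving out 1 array, the highest without CD11b-negative replicate 1. Of 258 values of the 10 genes under alternatives, 256 kept their direction, a count that says little by itself. The block, the trend and the filters leave a gene's difference unchanged on the same scaling and probe set, so many of these values are repeats. The 2 that reversed were those of Orc1 by its other probe set, 0.51 with and without the block. Whether a gene is higher with both kits has no value when an array is left out. With 2 arrays per fraction, the number of arrays limits the precision.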
